A study of Sus scrofa with 20 samples.

Results

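The breed contrast in females was measured in the hypothalamus of 10 pigs aged 2 months, 5 Iberian x Large White crossbred females and 5 pure Iberian females. They were chosen by the suffix of their column names and make up 10 of the 20 libraries of a series that holds 5 females and 5 males of each breed. All 10 animals were female by their labels, and no treatment, diet or genetic modification is named for any of them. The labels give no litter, sire or sequencing lane, so the p-values below measure the spread between these 10 animals. The comparison addresses how the hypothalamic messenger RNA of the Iberian pig, known for its fat deposition, differs from that of its cross with the lean Large White.

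The hypothalamus is a small region at the base of the brain that sets appetite, energy use, growth and reproduction. Its neurons send peptides such as vasopressin, orexin and the opioid peptides to other brain areas and to the pituitary, and supporting glia make up much of the rest of the tissue. Because the samples were pieces of whole tissue, fewer cells of a type and less RNA per cell cannot be told apart in any value below.

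Between 1430138 and 2371304 counts per female library were assigned to genes, 4.04 to 4.58% of all entries counted. Of 25880 gene rows, 18474 had at least 1 count in the 10 females and 6031 had enough to be tested, 5104 of them with a gene symbol. ENSSSCG00000032435 had 68 to 139 counts in every female and 0 in every male, and ENSSSCG00000012178 had 0 in every female and 32 to 65 in every male, so the libraries separated as their sex labels do. Among the 13 mitochondrial messengers the most counted was ND6, the 1 encoded on the other strand, with 5.37 to 9.997% of the gene counts against 0.181 to 0.284% for COX1. The sources used here do not say which strand setting was used in counting. Each gene name below therefore stands for the identifier that received the counts, and genes that overlap a neighbour can share counts with it. The limit holds for every gene and gene list below, with or without an overlap. Whether the counts come from the strand of the named gene was not tested. Among the genes named below, the spans of TARBP1, DUT, TMEM138, GDPD5, CCN1, CTU2, CNOT7, NUTM1, CHD8 and SLC6A9 overlap that of another annotated gene. Those of TBCD, NDRG1, SYN2, MYH11, AVP, HCRT and ADCYAP1 do so too. Further overlaps are given with SEPTIN1, TRPC4AP, PRR19 and GRPEL2.

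The peptide messengers that define the hypothalamus were thinly counted. AVP, the vasopressin precursor, had 253 counts over the 10 females, HCRT, the orexin precursor, 157, PENK, the enkephalin precursor, 267, and PDYN, the dynorphin precursor, 126. OXT (oxytocin) had 50 counts, PMCH (melanin-concentrating hormone) 65, NPY 58, GAL (galanin) 82, SST (somatostatin) 35, CARTPT 21, TAC1 16, AGRP 8, GHRH 8, GNRH1 7 and CRH 4, too few for a test. The receptor genes PRLR, ESR1, GHR and LEPR had 16, 7, 2 and 1 counts. No identifier carried the symbols POMC, TAC3, TRH or KISS1, and these genes were not analysed here. Only 4.04 to 4.58% of all entries were assigned to genes in these libraries, so a count this low does not show low expression. The cause of the low counts was not tested.

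A property of the libraries followed breed completely in females. Entries set aside for low alignment quality took 3.57 to 3.76% of all entries in the 5 crossbred females and 5.41 to 5.92% in the 5 Iberian females. The means were 3.65 ± 0.0674% and 5.61 ± 0.193% (SD, n = 5 each), a difference of -1.95 percentage points with no overlap. The share of entries outside annotated features was 82.2 to 83.9% in crossbred and 81.0 to 82.0% in Iberian females, again with no overlap. Both differences had an exact two-sided permutation p of 0.00794, the smallest that 5 against 5 allows. The adjusted p was 0.0238 for each over the 6 kinds of entry. That the low-quality share follows breed was known before this test, so its p is only a description. The shares of a library are parts of 1 whole, so the 2 differences are not independent. The shares assigned to genes overlapped (4.22 ± 0.206% and 4.15 ± 0.0288%, exact permutation p = 0.643). In males the split did not follow breed. The share was 3.10 to 3.88% in the 5 crossbred males, 5.59 and 5.33% in Iberian males 2 and 3, and 3.66, 3.10 and 2.73% in Iberian males 1, 4 and 5. In females, whatever set this share and breed cannot be told apart for any gene below.

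**Figure D1:**
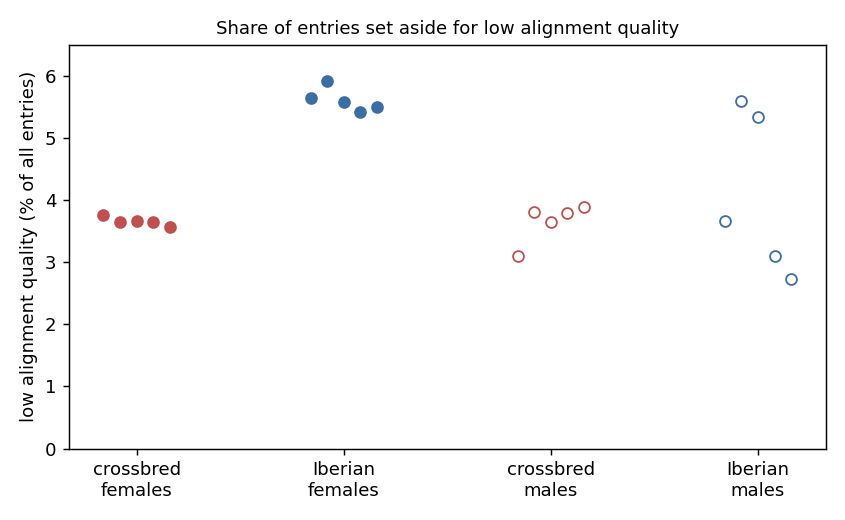
Share of all counted entries set aside for low alignment quality, in percent, by library (points; filled for females, open for males) in each breed and sex. The 5 Iberian females lie at 5.41 to 5.92%, above all 5 crossbred females at 3.57 to 3.76%, and the 5 Iberian males are divided between the 2 levels.

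Of 6031 tested genes, 4 passed an adjusted p of 0.05 in edgeR's quasi-likelihood test (0.0663%). The 3 that were higher in crossbred females (0.0497%) were SEPTIN1, TMEM9B and an identifier without a symbol, and the 1 that was lower (0.0166%) was PGGHG. The differences were of 1.57- to 2.27-fold, and for each of the 4 genes all 5 crossbred females lay on the same side of all 5 Iberian females. Of all tested genes, 456 (7.56%) had an unadjusted p under 0.05, 279 higher (4.63%) and 177 lower (2.93%) in crossbred females. The groups did not overlap for 81 genes (1.34%), of which 47 were higher (0.779%) and 34 lower (0.564%).

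**Figure D2:**
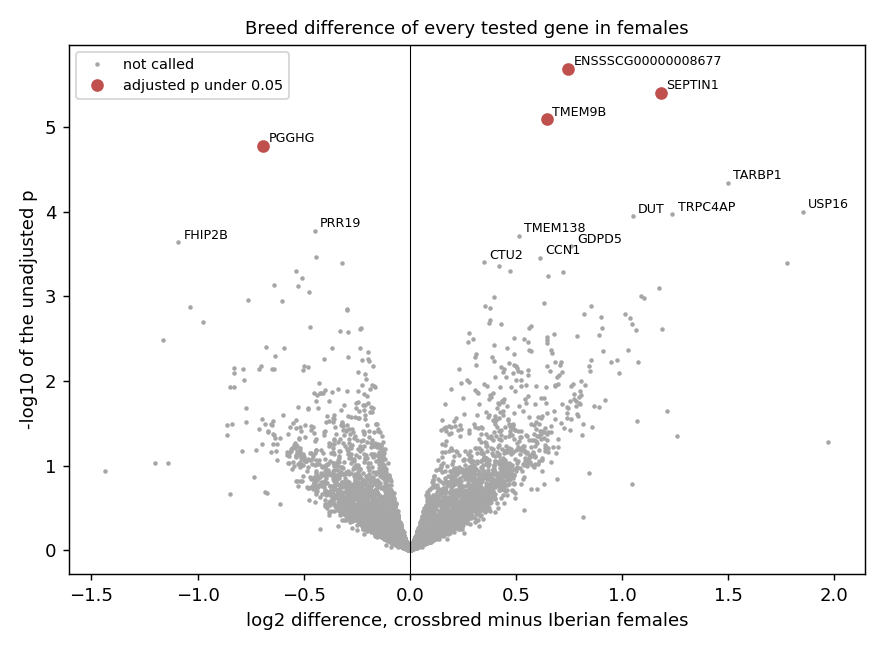
Log2 difference between crossbred and Iberian females (x axis) against -log10 of the unadjusted p (y axis) for the 6031 tested genes, 1 point per gene. The 4 genes with an adjusted p under 0.05 are in red, 3 to the right and PGGHG to the left, and TARBP1 and USP16 lie farther out with a larger p.

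SEPTIN1 encodes a septin, a GTP-binding protein that assembles into filaments beneath the cell membrane. Its level was 25.0, 24.9, 20.7, 21.0 and 20.6 CPM, that is counts scaled by the size of each library, in crossbred females 1 to 5 and 7.03, 11.6, 9.60, 9.69 and 11.0 CPM in Iberian females 1 to 5. Every crossbred animal was far above the highest Iberian animal. The means were 22.4 ± 2.28 and 9.79 ± 1.76 CPM (SD, n = 5 per breed), which is 2.27-fold higher in crossbred females (log2 1.18, SE 0.20, adjusted p = 0.0118 in edgeR). SEPTIN1 (ENSSSCG00000007800) lies on chromosome 3 at 17924651 to 17937949 of Sscrofa11.1, where its span overlaps that of ZNF48. Of the 8 tested septins 4 were above 0 and 4 below on the log2 scale, with a median of 0.05, against 51.8% above 0 and a median of 0.01 over all tested genes. SEPTIN11 was the nearest to it, at 9.76 ± 2.12 and 6.47 ± 1.53 CPM with no overlap (log2 0.61, SE 0.27, edgeR adjusted p = 0.613).

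TMEM9B, a lysosomal membrane protein with a part in inflammatory signalling, also rose in crossbred females. It measured 121, 111, 98.1, 120.5 and 102 CPM in the crossbred females and 65.4, 78.9, 71.7, 76.5 and 61.5 CPM in the Iberian females, again with a gap between the groups. The means were 110.6 ± 10.3 and 70.8 ± 7.33 CPM (log2 0.65, SE 0.12, edgeR adjusted p = 0.0163). TMEM9B (ENSSSCG00000014577) lies on chromosome 9 at 462623 to 510263 and no annotated gene overlaps it. Its close neighbour AKIP1 had a log2 difference of -0.11 (SE 0.30). Without crossbred female 1 or Iberian female 5 the adjusted p of TMEM9B was 0.0544 or 0.108.

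The identifier without a symbol, ENSSSCG00000008677, was the most counted of the genes that rose. Its level was 209, 264, 249.7, 185 and 181 CPM in crossbred and 152, 133, 145, 103 and 119 CPM in Iberian females, so that the lowest crossbred animal was above the highest Iberian animal. The means were 217.8 ± 37.8 and 130.3 ± 20.0 CPM (log2 0.75, SE 0.12, edgeR adjusted p = 0.0118). No position or role is given for it here, because the annotation tables hold no entry for the identifier. With SEPTIN1 it had an adjusted p under 0.05 with each of the 10 libraries left out in turn.

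PGGHG encodes a glucosidase that trims the sugar chains of collagen, and it fell in crossbred females. The crossbred animals measured 89.4, 133, 149.9, 159 and 143 CPM and the Iberian animals 256, 189.6, 229, 228 and 189 CPM. The highest crossbred animal was below the lowest Iberian animal. The means were 134.9 ± 27.1 and 218.4 ± 28.7 CPM (log2 -0.69, SE 0.13, edgeR adjusted p = 0.0252). PGGHG (ENSSSCG00000025023) lies near the end of chromosome 2 at 99254 to 104898, with IFITM5 and NLRP6 beside it and no gene across it. Its adjusted p was 0.0812, 0.0735, 0.0812 and 0.109 without crossbred female 2 or Iberian female 1, 3 or 4, and 0.0509 with limma's voom.

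**Figure D3:**
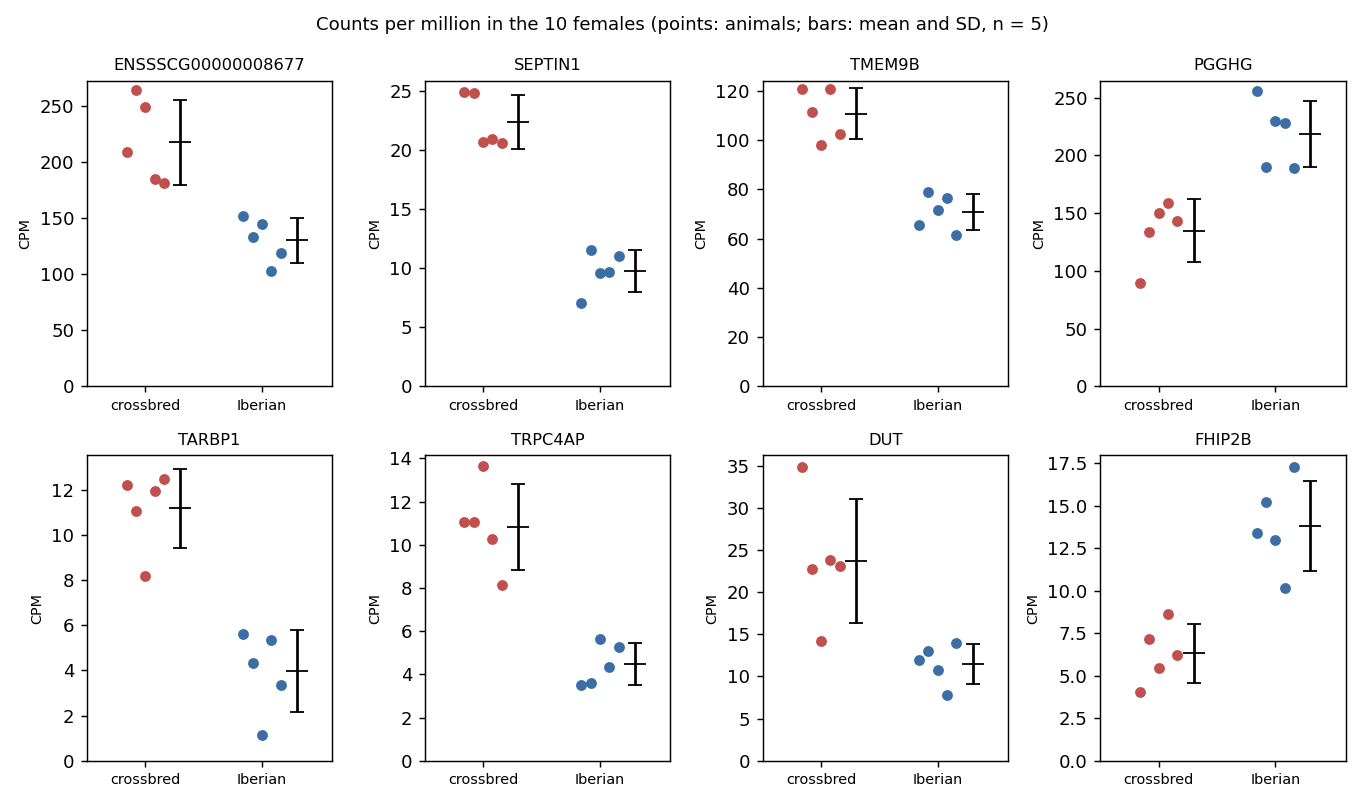
CPM in each of the 10 females (points, in replicate order from left to right), with the mean and SD of each group of 5 (bars), for the 4 genes with an adjusted p under 0.05 (top) and 4 others with a small p (bottom). The points of the 2 breeds do not overlap in any panel, as for SEPTIN1 at 20.6 to 25.0 against 7.03 to 11.6 CPM. Over all tested genes this held for 81 of 6031 (1.34%). USP16, not shown, has a smaller p than TRPC4AP and DUT, and its groups overlap.

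Behind these, the named genes with the smallest p in the upward direction did not pass the threshold in edgeR. TARBP1, a methyltransferase of transfer RNA, was at 12.2, 11.06, 8.18, 11.9 and 12.5 CPM in crossbred and 5.63, 4.34, 1.13, 5.33 and 3.36 CPM in Iberian females (log2 1.50, SE 0.31, edgeR adjusted p = 0.0548), with no overlap but only 2 to 29 counts per library. DUT, which removes dUTP before it can enter DNA, was at 34.8, 22.7, 14.2, 23.9 and 23.1 against 11.96, 13.03, 10.7, 7.75 and 13.9 CPM (log2 1.05, SE 0.23, edgeR adjusted p = 0.0857). The lowest crossbred value of DUT was just above the highest Iberian one. CTU2, which thiolates the wobble base of transfer RNA, averaged 247.6 ± 24.2 and 194.4 ± 10.46 CPM, and its groups overlapped through crossbred female 5 at 207 CPM (log2 0.35, SE 0.09, edgeR adjusted p = 0.142).

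USP16, an enzyme that takes ubiquitin off histone H2A, was at 6.97, 9.96, 10.9, 10.3 and 11.2 CPM in crossbred and 7.03, 5.07, 1.13, 0.969 and 0.961 CPM in Iberian females. Iberian females 3, 4 and 5 were near 1 CPM while Iberian female 1 was level with the lowest crossbred animal (log2 1.85, SE 0.40, edgeR adjusted p = 0.0857). Of the 19 tested ubiquitin-specific proteases 10 were above 0 and 9 below, with a median of 0.05. TRPC4AP, a partner of the TRPC4 channel and of a ubiquitin ligase, was at 8.12 to 13.6 CPM in crossbred and 3.52 to 5.65 CPM in Iberian females (log2 1.24, SE 0.27, edgeR adjusted p = 0.0857). MYH7B, whose span overlaps that of TRPC4AP, had far more counts and a log2 difference of -0.00 (SE 0.06).

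TMEM138, a membrane protein of the ciliary base whose loss causes Joubert syndrome in humans, was at 105, 103, 105, 95.0 and 104 CPM in crossbred and 58.4, 66.6, 83.0, 79.4 and 69.2 CPM in Iberian females. The groups did not overlap (log2 0.51, SE 0.12, edgeR adjusted p = 0.116). GDPD5, a phosphodiesterase that releases choline from glycerophosphocholine, averaged 76.2 ± 21.2 and 45.4 ± 8.38 CPM and overlapped (log2 0.76, SE 0.18, edgeR adjusted p = 0.13). CCN1, a matrix protein that binds integrins and is quickly induced by stimuli, averaged 81.9 ± 18.0 and 54.0 ± 5.87 CPM, with crossbred female 5 at 52.5 CPM inside the Iberian range (log2 0.61, SE 0.15, edgeR adjusted p = 0.142).

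In the downward direction none but PGGHG passed in edgeR. CHD8, a chromatin remodeller, was at 39.5, 34.8, 35.4, 35.8 and 44.4 CPM in crossbred and 60.5, 56.4, 50.8, 55.2 and 50.9 CPM in Iberian females (log2 -0.53, SE 0.14, edgeR adjusted p = 0.181), with no overlap. CNOT7, a deadenylase that shortens messenger tails, averaged 76.1 ± 13.1 and 108.3 ± 15.8 CPM and its groups touched at crossbred female 2 (log2 -0.51, SE 0.13). TCOF1, a nucleolar protein needed for ribosomal RNA synthesis, averaged 72.5 ± 10.8 and 105.2 ± 19.1 CPM (log2 -0.54, SE 0.14).

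FHIP2B and PRR19 had the smallest p among the genes with lower values that were not called. FHIP2B was at 4.07, 7.19, 5.45, 8.64 and 6.25 CPM in crossbred and 13.4, 15.2, 12.99, 10.2 and 17.3 CPM in Iberian females (log2 -1.09, SE 0.26, edgeR adjusted p = 0.125). PRR19 was at 110.1 to 139 CPM in crossbred and 149 to 192 CPM in Iberian females (log2 -0.45, SE 0.10, edgeR adjusted p = 0.113). Neither pair of groups overlapped. PAFAH1B3, whose span overlaps that of PRR19, had far more counts and a log2 difference of -0.06 (SE 0.06). NUTM1, a gene known mainly from human testis and from fusions in carcinoma, averaged 19.3 ± 2.62 and 30.4 ± 2.77 CPM with no overlap (log2 -0.64, SE 0.17). The span of NUTM1 overlaps that of LPCAT4.

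DESeq2, run on the same counts, called 20 of the 6031 genes (0.332%), 9 higher (0.149%) and 11 lower (0.182%) in crossbred females. Some genes had no adjusted p in DESeq2, so fewer than 6031 could be called. SEPTIN1, TARBP1, USP16, TRPC4AP, DUT, FHIP2B, NUTM1, TAGAP, GYPC and LSS were among those without one. Of the named genes that edgeR did not call, 11 were among the 20 called by DESeq2. Those with higher values were TMEM138 (DESeq2 adjusted p = 0.0111), GDPD5 (0.0193), CCN1 (0.0308), SLC6A9 (0.033), CTU2 (0.0335) and SGCA (0.0016). Those with lower values were PRR19 (DESeq2 adjusted p = 0.0114), SLA-DQB1 (0.027), TCOF1 (0.0335), CNOT7 (0.0335) and CHD8 (0.0379). In edgeR, leaving out a single female also brought 12 of the named and mitochondrial genes past the threshold. Over all tested genes these fits called 3 to 16, with 16 of 6286 without crossbred female 5 and 8 of 6234 without crossbred female 3. Most of the 12 were named for a small p in the same animals, so their passing is not independent evidence. CCN1, CTU2, GDPD5, TRPC4AP, PRR19 and GYPC passed without crossbred female 5 (adjusted p from 0.00224 for GYPC to 0.0458 for PRR19), and TARBP1, DUT and GDPD5 without crossbred female 3 (0.0319, 0.0242 and 0.0296). TARBP1 and USP16 passed without Iberian female 1 (0.0478 and 0.0139), SGCA without Iberian female 4 (0.0244), TBCD without crossbred female 2 (0.0128) and ND6 without Iberian female 3 (0.00484).

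Immune genes among the leading names were few. TAGAP, a GTPase regulator of T cells, averaged 7.73 ± 4.26 CPM in crossbred and 16.1 ± 2.75 CPM in Iberian females, and crossbred female 3 lay inside the Iberian range (log2 -1.04, SE 0.29, edgeR adjusted p = 0.221). SLA-DQB1, a chain of the class II molecule that presents antigen, was at 25.0, 39.3, 24.5, 18.9 and 21.9 CPM in crossbred and 50.6, 31.8, 32.8, 53.3 and 82.1 CPM in Iberian females (log2 -0.98, SE 0.26, edgeR adjusted p = 0.267). Crossbred female 2 was above Iberian females 2 and 3. SLA-DQB1 belongs to a family of near-identical and highly variable genes, so its counts are uncertain between copies and between breeds. Of the 5 tested antigen-presentation genes 4 were below 0, with a median of -0.16, and CD74, the invariant chain, had a log2 difference of -0.19 (SE 0.14). The 10 tested interferon-response genes were 5 above and 5 below, with a median of -0.01.

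Messengers encoded by mitochondrial DNA had mostly lower values in crossbred females, and edgeR called none of them with all 10 animals. Of 13 tested, 12 had a log2 difference below 0 and 1, ATP8, above, with a median of -0.15, and 0 passed the adjusted threshold. ND2, a subunit of respiratory complex I, was at 807, 729.6, 788, 793 and 622 CPM in crossbred and 881, 921, 1108, 854 and 912 CPM in Iberian females, with no overlap (log2 -0.32, SE 0.08, edgeR adjusted p = 0.142). ND1, of the same complex, averaged 555.7 ± 56.9 and 682.3 ± 79.7 CPM and overlapped (log2 -0.29, SE 0.08, edgeR adjusted p = 0.223). ND6 averaged 71485 ± 6027 and 89238 ± 21872 CPM (log2 -0.32, SE 0.18, edgeR adjusted p = 0.755), and without Iberian female 3 its log2 difference was -0.47 (SE 0.07) and passed (edgeR adjusted p = 0.00484). With no filter on low counts ND2 and ND1 also passed (edgeR adjusted p = 0.00525 and 0.0276). Summed over the 13, the level was 96887 to 118742 CPM in crossbred and 86223 to 149617 CPM in Iberian females, so the groups overlapped. The 13 messengers come from 1 small genome and are not independent of each other.

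The nuclear genes of the respiratory chain showed no common shift. Of 21 tested, 8 were above 0 and 13 below, with a median of -0.06. NDUFS1, the largest subunit of complex I, was at 709 to 832 CPM in crossbred and 840.2 to 904 CPM in Iberian females without overlap (log2 -0.18, SE 0.07, edgeR adjusted p = 0.427). NDUFV1 of the same complex had a log2 difference of 0.36 and an unadjusted p of 0.0425.

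Lipid genes were examined because the breeds differ in fat deposition, and edgeR called none. Of 12 tested genes of fatty acid synthesis, elongation and desaturation, 9 were above 0, with a median of 0.09. ELOVL7, which elongates long fatty acids, averaged 29.7 ± 7.63 and 21.1 ± 1.99 CPM, with crossbred female 5 at 18.1 CPM below every Iberian animal (log2 0.49, SE 0.19, edgeR adjusted p = 0.453). FASN, the fatty acid synthase, averaged 76.9 ± 16.6 and 71.6 ± 8.54 CPM (log2 0.11, SE 0.15). Of 10 cholesterol-synthesis genes 5 were above and 5 below, with a median of 0.01. LSS, which closes the sterol ring, stood out from them at 6.39, 6.64, 10.9, 10.7 and 10.6 CPM against 4.92, 3.62, 3.95, 5.33 and 3.36 CPM, with no overlap (log2 1.09, SE 0.30, edgeR adjusted p = 0.208). Fatty acid oxidation had 4 of 6 tested genes above 0 and a median of 0.03.

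The peptide and feeding genes that could be tested did not differ beyond their spread. AVP was at 13.4, 2.77, 20.7, 5.35 and 21.9 CPM in crossbred and 38.7, 16.6, 20.9, 2.91 and 8.65 CPM in Iberian females, a wide spread within each breed. Its log2 difference was -0.42 with a 95% interval of -2.06 to 1.21 (edgeR adjusted p = 0.945). HCRT averaged 9.97 ± 3.30 and 7.15 ± 1.85 CPM (log2 0.44, 95% interval -0.13 to 1.01), and PENK averaged 15.2 ± 4.48 and 14.4 ± 3.63 CPM (log2 0.07). PDYN averaged 5.84 ± 1.56 and 8.07 ± 1.598 CPM (log2 -0.50, 95% interval -1.08 to 0.07). For AVP, HCRT and PDYN each interval crosses 0. A true difference of any size inside it is compatible with these counts and this spread between animals. For the better counted secretory genes ADCYAP1, PCSK1N, SCG2 and CHGB the log2 differences were -0.24, -0.11, -0.11 and -0.19, each with an interval across 0. Insulin and leptin signalling had 4 of 8 tested genes above 0 with a median of 0.02, and 8 of 11 clock genes were below 0 with a median of -0.07. Of 7 thyroid hormone genes 5 were below 0 with a median of -0.10, among them RXRB, a partner of the thyroid hormone receptors, at 85.3 ± 13.1 and 101.7 ± 8.09 CPM (log2 -0.26, SE 0.12, edgeR adjusted p = 0.636). Of 9 hypoxia-response genes 6 were above 0 with a median of 0.03, and NDRG1, which hypoxia induces, was at 15.2 ± 5.60 and 21.2 ± 1.31 CPM (log2 -0.49, SE 0.22, edgeR adjusted p = 0.613).

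Genes of neurons and synapses gave a mixed picture. Of 16 tested neuron markers 12 were below 0 with a median of -0.10, and SYN2, a protein of synaptic vesicles, had the smallest p (11.9 ± 1.92 and 16.1 ± 2.22 CPM, log2 -0.44, SE 0.21, edgeR adjusted p = 0.656). SNAP25, of the vesicle fusion machinery, averaged 23.5 ± 3.39 and 25.0 ± 3.44 CPM. SLC6A9, the glial glycine transporter, was at 161, 165, 141, 185 and 149 CPM in crossbred and 96.4, 119, 128, 126 and 127 CPM in Iberian females, with no overlap (log2 0.42, SE 0.11, edgeR adjusted p = 0.147). The rest of the 10 tested GABA and glycine genes ranged from -0.26 to 0.33 on the log2 scale. Of 15 genes in the channel list 11 were above 0 with a median of 0.14. The 2 with the smallest p, TRPC4AP and ITPR1, are a channel partner and the inositol trisphosphate receptor of internal calcium stores, not voltage-gated channels. ITPR1 averaged 18.9 ± 5.54 and 10.6 ± 1.69 CPM (log2 0.82, SE 0.23, edgeR adjusted p = 0.241).

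Myelin and astrocyte markers were close to equal. The 18 tested myelin genes had a median of 0.04, and MBP, the myelin basic protein, averaged 945 ± 221 and 929 ± 98.7 CPM. The 15 astrocyte genes had a median of -0.04 and the 4 genes of oligodendrocyte precursors a median of 0.11, although PTPRZ1, a receptor phosphatase of those precursors, had a log2 difference of -0.65 (12.1 ± 3.80 and 18.9 ± 3.30 CPM, SE 0.22, edgeR adjusted p = 0.362). The summed level of the 18 microglia markers was 597 to 646 CPM in crossbred and 532 to 593 CPM in Iberian females and did not overlap, while none of its 8 tested members passed and the median was 0.14. Markers of tissue beside the hypothalamus overlapped between breeds, with summed levels of 50.6 to 117.9 and 57.0 to 106 CPM for 7 choroid plexus genes, and 101 to 133 and 93.4 to 117 CPM for 7 pituitary genes. Most of each sum came from 1 gene, so the sums say little about the other members. SLC13A4 of the choroid plexus list averaged 85.1 ± 28.2 and 67.7 ± 19.5 CPM. CHGA of the pituitary list averaged 106.7 ± 11.6 and 98.9 ± 7.63 CPM. Of the pituitary hormones PRL had at most 4 counts and CGA and FSHB at most 2 counts in any female. Among 6 tested genes of vessels and mural cells 4 were below 0 with a median of -0.03, and MYH11, the myosin of smooth muscle, was at 21.4 ± 2.195 and 15.7 ± 4.12 CPM (log2 0.45, SE 0.20, edgeR adjusted p = 0.616). The part of these markers in the gene differences above was not tested.

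**Figure D4:**
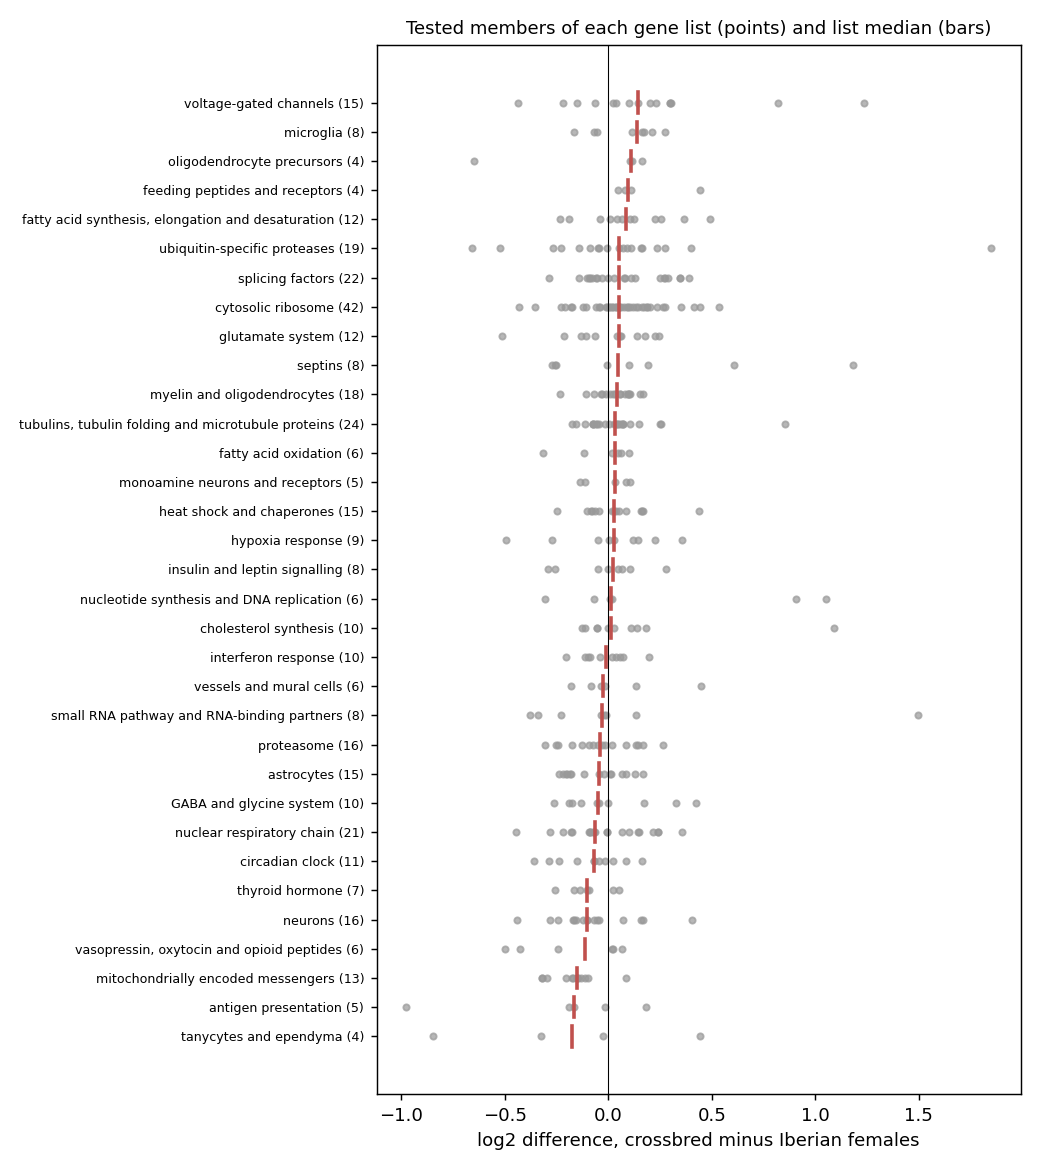
Log2 difference between crossbred and Iberian females (x axis) for each tested member (grey points) of the 33 gene lists with at least 4 tested members, whose number stands in brackets, and the list median (red bars). The medians lie between -0.17 and 0.14, and single members such as USP16 at 1.85 and SEPTIN1 at 1.18 lie far from the rest of their lists.

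GYPC, a glycophorin of the red-cell membrane, had a wide difference in fold that edgeR did not call with all 10 females. It was at 18.0, 20.5, 16.9, 13.2 and 2.499 CPM in crossbred and 2.81, 6.51, 1.69, 4.36 and 5.28 CPM in Iberian females, so crossbred female 5 lay among the Iberian animals (log2 1.78, SE 0.41, edgeR adjusted p = 0.142). ALAS2, the heme enzyme of red cells and the other tested blood gene, had a log2 difference of -0.12. SGCA, a sarcoglycan of the dystrophin complex, was at 39.5, 104, 72.5, 59.2 and 55.6 against 26.7, 22.4, 26.5, 48.0 and 21.1 CPM, with Iberian female 4 above crossbred female 1 (log2 1.17, SE 0.27, edgeR adjusted p = 0.185). TBCD, a cofactor that folds tubulin, was at 52.8, 18.3, 38.7, 53.9 and 30.6 against 23.9, 21.7, 23.2, 17.9 and 22.1 CPM. Crossbred female 2 was at the level of the Iberian females and the other crossbred animals were above all of them (log2 0.85, SE 0.23, edgeR adjusted p = 0.222). The other 23 tested tubulin and microtubule genes ranged from -0.18 to 0.26. WDR45B, a protein of autophagy, averaged 17.1 ± 6.10 and 10.8 ± 1.69 CPM and overlapped (log2 0.69, SE 0.25, edgeR adjusted p = 0.389). SGCA, TBCD and WDR45B were named because of earlier results of the 20 libraries, and GYPC through the blood list with those results known, so the direction of the 4 is not independent evidence.

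The males gave a separate set of animals for the same contrast. Iberian male 5 stood apart, where the pituitary hormone genes PRL, CGA and FSHB had 157, 163 and 111 counts, while no other male had more than 4, 1 and 0, and values are given with and without it. With all 10 males, 2 of 6610 genes passed (0.0303%), and without it 28 of 6869 (0.408%). ENSSSCG00000008677 was at 199, 206, 194, 213 and 242 CPM in crossbred males and 129, 155, 144, 127 and 38.6 CPM in Iberian males 1 to 5. Its log2 difference was 0.82 (SE 0.25, edgeR adjusted p = 0.371) with all males and 0.61 (SE 0.10, edgeR adjusted p = 0.00172) without Iberian male 5, the same direction as in females. Iberian males 1 and 4, whose low-quality share was like that of the crossbred animals, were at 129 and 127 CPM, and Iberian males 2 and 3, with the high share, were at 155 and 144 CPM.

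The other genes called in females were not called in males. SEPTIN1 had a male log2 difference of 0.53 (SE 0.30) with all males and 0.44 (SE 0.29) without Iberian male 5, TMEM9B 0.24 (SE 0.18) and 0.43 (SE 0.13), and PGGHG -0.29 (SE 0.20) and -0.35 (SE 0.24). None of the 4 passed the test of a difference between the sexes, where the smallest adjusted p among them was 0.625 with all animals. Of the 21 leading genes, the 4 called and the 10 with the smallest p in each direction, 20 could be tested in all males. The sign was the same in 18 of the 20, and 9 of these had an unadjusted p under 0.05, against 9.02% of all genes tested in males. Without Iberian male 5, 20 of 21 had the same sign, and 7 an unadjusted p under 0.05, against 13.3% of all genes tested in that fit. Among the 7 were TMEM138 at 0.49 on the log2 scale (SE 0.11, adjusted p = 0.0269 in edgeR) and CCN1 at 0.57 (SE 0.13, adjusted p = 0.042 in edgeR). Over all 5959 genes tested in both sexes 48.4% had the same sign, and of the 448 with an unadjusted p under 0.05 in females 227 did (50.7%), which is near the share over all genes. Without Iberian male 5 the same sign was seen for 47.2% of 5988 genes, and for 228 of the 454 with an unadjusted p under 0.05 in females (50.2%). TRPC4AP had a log2 difference of 0.00 (SE 0.26) in males against 1.24 in females, a gap of 1.23 (SE 0.37) that did not pass (edgeR adjusted p = 0.423).

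The low-quality split was also set against the leading genes within the males. The crossbred male mean was on the female side of the mean of the 3 low-share Iberian males, Iberian male 5 among them, for 18 of 20 leading genes, and of the mean of the 2 high-share Iberian males for 17 of 20. The high-share Iberian males were the farther from the crossbred males, in the female direction, for 10 of the 20 genes. These are counts over few animals, the same males as in the counts of equal sign above, given as a description. The same counts over all genes were not made, and the part of the low-quality share was not tested.

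**Figure D5:**
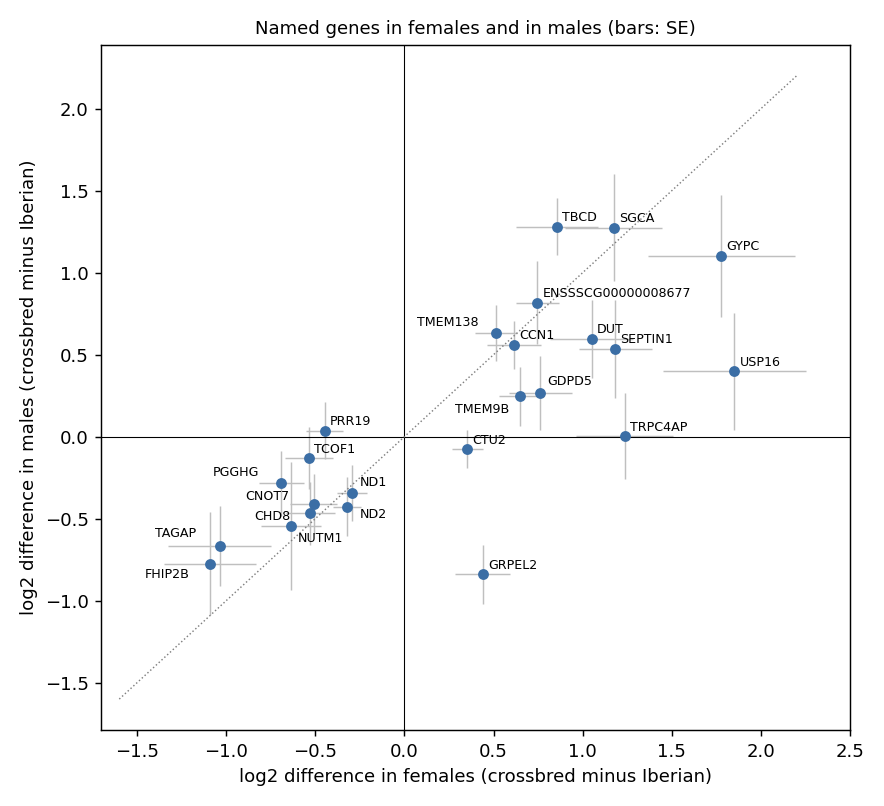
Log2 difference between crossbred and Iberian animals in females (x axis) and in all 10 males (y axis) for 24 named genes, with standard errors as bars and the line of equal difference dotted. Most leading genes lie in the quadrants of equal sign, TRPC4AP lies on the zero line of the males at 0.00, and GRPEL2 lies at 0.44 in females and -0.84 in males.

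A single gene, GRPEL2, passed edgeR's adjusted test of a difference in breed effect between the sexes, 1 of 7090 tested (0.0141%). An unadjusted p under 0.05 in that test was seen for 593 genes. GRPEL2 was also named because of earlier results of these data, so its passing is not independent evidence. GRPEL2, a partner of the mitochondrial chaperone that pulls proteins into the matrix, was at 39.5, 38.2, 45.8, 36.2 and 41.9 CPM in crossbred and 28.1, 28.9, 25.4, 36.8 and 28.3 CPM in Iberian females. In males the order was turned, with 24.6, 22.1, 29.2, 19.2 and 34.99 CPM in crossbred and 49.8, 48.0, 52.5, 43.7 and 37.0 CPM in Iberian animals. The log2 difference was 0.44 (SE 0.15, edgeR adjusted p = 0.366) in females and -0.84 (SE 0.18, edgeR adjusted p = 0.371) in males. The female minus male difference was 1.28 (SE 0.23, edgeR adjusted p = 0.0268), and 1.33 (SE 0.22, edgeR adjusted p = 0.003) without Iberian male 5, when it was again the 1 gene called (0.0136%). GRPEL2 lies on chromosome 2 at 150510520 to 150520013, where its span overlaps that of IL17B.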

How the data were processed

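Messenger RNA of hypothalamus was sequenced from 10 crossbred and 10 Iberian pigs, and the 10 females are described here. The file deposited by the authors gives the raw count of every gene in every animal, without normalization. Its 5 summary lines entered neither the library sizes nor the gene tests. The submitters' processing notes name HISAT2 and HTSeq, FastQC and Trim Galore, DESeq2, and the genome build Sscrofa11.1. Versions, annotation release and strand setting are not given in the sources used here. HTSeq sets aside alignments of low quality, so whatever moves that share also moves which fragments can be counted. Symbols were matched for 14857 identifiers (57.4%), and positions came from RefSeq genes of Sscrofa11.1.

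The counts of the 10 female libraries alone were fitted with edgeR 4.0.16 (R 4.3.3), after TMM scaling and filterByExpr (minimum count 10, minimum total 15). The quasi-likelihood model had 1 mean per breed and robust dispersions (common biological coefficient of variation 0.133). P-values were adjusted by Benjamini-Hochberg over 6031 genes, with a threshold of 0.05. Log2 values are crossbred minus Iberian. CPM are counts scaled to the effective library size, given with SD over 5 animals. Summary lines were compared by exact permutation over 252 splits. The test of a difference between the sexes used a model of all 20 libraries with 1 mean for each of 4 groups, and the males were also fitted alone.

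The 42 gene lists (1016 entries, 33 lists with at least 4 tested members) were described by counts and medians, with no test of a list. Named genes were all called genes, the 10 with a symbol and the smallest p in each direction, the member of each list with the smallest p where that was under 0.05 unadjusted, a set of hypothalamic genes, and TBCD, WDR45B, SGCA and GRPEL2. The genes, lists and rules were chosen with earlier results of these data known. Pairs of libraries of the same breed differed by more than sampling noise, with a chi-square per degree of freedom of 2.67 to 8.79 (genes with 20 counts or more in a pair). On simulated counts for the female contrast, with 200 of 6031 genes changed, 69% of the 2-fold and 38% of the 1.5-fold changes were recovered, with 7 false calls and 0 of the wrong sign. Alternatives were RLE scaling, DESeq2 1.42.0, voom in limma 3.58.1, other filters, a replicate block, other samples in the fit, no mitochondrial genes, and each library left out. The fits without Iberian male 5 and the alternatives for the sex difference and for groups that do not overlap were added after earlier results had been seen.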

Additional observations from a re-analysis of the deposited data

Results flagged for a closer look

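Within a group of 5 a value was marked when its distance to the nearest other animal exceeded 0.71 of the group's range. This was applied to 54 groups (the leading genes and the kinds of entry in each breed), and chance marks about 1 in 20. TMEM138 at 95.0 CPM in crossbred female 4 was far below the other 4 crossbred females, which lay at 103 to 105 CPM, and it was still above every Iberian female. ND2 at 1108 CPM in Iberian female 3 was far above the other Iberian females at 854 to 921 CPM.

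The breed difference of GRPEL2 differed between the sexes, with a female minus male difference of 1.28 on the log2 scale in edgeR's test over all 20 animals (adjusted p = 0.0268). The groups of males did not overlap, and among females Iberian female 4 at 36.8 CPM lay above crossbred female 4 at 36.2 CPM.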

How the results depend on the processing

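The number of genes called between the females was 4 and moved most with the tool, the filter and the animals in the fit. It was 20 with DESeq2 (3 of the 4 shared; DESeq2 gave SEPTIN1 no adjusted p), 39 with no filter, 7 with at least 1 CPM in 5 libraries, and 8 with all libraries but Iberian male 5. With all 20 libraries edgeR called 0, with 392 genes at an unadjusted p under 0.05 and adjusted p of 0.239 to 0.567 for the 4 genes. Leaving out 1 female gave 3 to 16 calls, with 8 without crossbred female 3 and 16 without crossbred female 5. RLE scaling, no robust estimation and leaving out mitochondrial genes gave 4 and voom 3. Genes without overlap numbered 81, or 135 with the 1 CPM filter. In these alternatives no called gene changed direction. The sex difference had 1 call under each of its 5 alternatives.

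Replicate numbers are shared between the breeds but are not said to pair animals. Deviations of same-numbered females correlated at 0.05, 0.01, 0.06, -0.09 and -0.02, and the replicate block gave 9 calls, the 4 among them.

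Several list medians, all untested, moved by more than the spread between animals. Without a filter they were -0.41 for vasopressin, oxytocin and opioid peptides, 0.000813 for fatty acid synthesis, 0.0067 for the channel list, -0.036 for ubiquitin-specific proteases, -0.072 for antigen presentation and 0.10 for vessels. With the 1 CPM filter they were -0.11 for feeding peptides, 0.025 for the channel list and -0.085 for antigen presentation. The small RNA list was at -0.14 in both fits with males. With 1 female left out the medians ranged from -0.087 to 0.062 for the nuclear respiratory chain, -0.030 to 0.049 for ubiquitin-specific proteases, -0.21 to -0.024 for antigen presentation and -0.034 to 0.047 for fatty acid oxidation. The differences in entries not aligned and ambiguous ranged from 0.0113 to 0.0233 and from -0.0125 to -0.00816 points, and the highest and the lowest of these, without crossbred female 1 and Iberian female 3, passed their adjusted tests. A change of filter also changes which members enter a list, with 18474 genes tested without a filter and 11943 with the 1 CPM filter, against 6031. The cause of these moves was otherwise not tested. TARBP1 and USP16 had as few as 2 counts in a library.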

Other observations

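Among the 81 genes whose groups did not overlap (1.34% of those tested), several named here were chosen after their values were seen, and none of them passed the adjusted threshold in edgeR's test with all 10 females. Higher in crossbred females were ACAD9, an acyl-CoA dehydrogenase that also helps to assemble complex I (47.0 ± 14.5 and 28.8 ± 3.37 CPM), PSME2, a subunit of the proteasome activator (48.2 ± 11.95 and 31.0 ± 3.72 CPM), F10, a coagulation factor (119.8 ± 7.18 and 92.9 ± 10.002 CPM), and SLC7A5, a carrier of large neutral amino acids (13.8 ± 2.37 and 9.53 ± 0.241 CPM). GFRA1, a receptor for a glial growth factor, was at 9.63 ± 2.95 and 4.58 ± 1.42 CPM. Lower in crossbred females were NMNAT2, which makes NAD in axons (5.03 ± 1.05 and 8.92 ± 2.31 CPM), and CHMP5, of the membrane-sorting machinery (131.9 ± 1.78 and 151.8 ± 5.46 CPM).

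The summed level of 26 proteasome genes was 4508 to 4814 CPM in crossbred and 4964 to 5400 CPM in Iberian females and did not overlap. PSMB3, a subunit of the proteasome core, supplied most of it at 3137 ± 145 and 3543 ± 167 CPM (log2 -0.18, SE 0.06, edgeR adjusted p = 0.362), and of the 16 tested members 6 were above 0 and 10 below. Of 42 tested ribosomal protein genes 29 were above 0 with a median of 0.05. PAICS, an enzyme of purine synthesis, had a log2 difference of 0.91 beside DUT, while TYMS and TK1 of the thymidine pathway were at 0.02 and 0.01. KLHL35, which lies 2031 bases from GDPD5 on chromosome 9, was at 21.5 and 10.6 CPM on average (log2 1.03, SE 0.32, edgeR adjusted p = 0.322). Chromosomes were compared over the 4811 tested genes with a position. The share with an unadjusted p under 0.05 was highest on chromosome 11, with 13 of 81 genes (16.05%). It lay between 3.87 and 9.27% on the other numbered chromosomes and X, and was 7.56% over all 6031 tested genes. Chromosome 11 was picked after all shares were seen, and its share was not tested.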
